A study of Acipenser schrenckii with 2 samples.

Results

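The miRNAs miR-23, miR-24 and miR-27 were read in the gonads of 1 female and 1 male Amur sturgeon (Acipenser schrenckii) through 30 of the 663 miRNA probes of a chip. Members were taken by name alone: every probe whose name, after the 3-letter species prefix, starts with miR-23, miR-24 or miR-27, with any letter, copy or arm. They comprised 5 probes for miR-23, 7 for miR-24 and 18 for miR-27. Both fish were 11 months old and in normal condition, with no treatment named, and the labels describe them as at an earlier phase of sex differentiation. Total RNA of each gonad was the starting material, and its tagged small RNAs went onto a single-colour (Cy3) array of their own. Each probe was spotted 5 times on an array. The series asks which miRNAs differ between the sexes. With 1 animal and 1 array per sex there is no replicate of either gonad, so no test between the sexes was possible and no p-value is given. All ± values are SDs over the 5 repeat spots of a probe, which are technical. In bulk gonad RNA, fewer cells of a type and less RNA per cell cannot be told apart.

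A miRNA is a short RNA that guides a silencing complex to messenger RNAs, mainly through its seed, the bases near its 5′ end, and lowers their output. In vertebrates miR-23, miR-27 and miR-24 are cut from shared transcripts, in more than one copy of the cluster, and letters such as a and b name the copies. The hairpin of each gives a 3p strand, which is the main product, and a 5p strand, which is usually scarce. In human cells miR-23 is known to lower glutaminase, miR-27 to lower the fat cell regulator PPARG, and miR-24 to lower cell cycle genes. The cluster is active in vessel walls, muscle and myeloid blood cells, all of which can lie in a dissected gonad beside germ cells and their supporting cells.

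The targets for which the probes were built show how the members relate, and the lines below give 1 sequence per letter of the 3p arm, a second one where length matters later, and the brightest 5p target. They are the target sequences given with the array, 5′ to 3′, and come from other fishes (dre zebrafish, ccr common carp, ipu channel catfish, ola medaka, also called Japanese killifish, fru fugu). The sturgeon's own sequences were not used here. Capitals mark the seed, bases 2 to 8 counted from the 5′ end, and, in the 3p targets, the later bases that vary between probes of the same miRNA.
dre-miR-23a: aUCACAUUgccagggauuUcca
dre-miR-23b: aUCACAUUgccagggauuAcca
dre-miR-24: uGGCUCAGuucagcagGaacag
ola-miR-24b-3p: uGGCUCAGuucagcagGa
ola-miR-24c: uGGCUCAGuucagcagAa
dre-miR-27a: uUCACAGUggCuaaguucCGCU
dre-miR-27b: uUCACAGUggCuaaguucUGCA
ipu-miR-27c: uUCACAGUggUuaaguucUG
dre-miR-27c-3p: uUCACAGUggUuaaguucUGC
ccr-miR-27c-3p: uUCACAGUggUuaaguucUGCC
ccr-miR-27d: uUCACAGUggCuaaguucUUC
ola-miR-27d-3p: uUCACAGUggCuaaguuc
ipu-miR-27e: uUCACAGUggCuaaguucAGU
ola-miR-24b-5p: uGCCUACUgagcugauaacagu

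Each miRNA had 1 seed in all its 3p probes, whatever the letter: UCACAUU in the 5 probes of miR-23, GGCUCAG in the 5 of miR-24 and UCACAGU in the 14 of miR-27. No other probe on the chip had any of these seeds. The seeds of miR-23 and miR-27 differ by a single base, U7G from dre-miR-23a to dre-miR-27a. The letters lie behind the seed. miR-23b differs from miR-23a by U19A, and miR-24c from the 18-base miR-24b target by G17A. Against dre-miR-27b, and over the first 21 bases, miR-27a has U19C, miR-27c has C11U, miR-27d has G20U and miR-27e has U19A and C21U. The 30 targets were all distinct, 18 to 23 bases long and 40.0% to 56.5% G and C, yet many differ only in where they end. The 18-base target of ola-miR-27d-3p is held whole in the targets of 10 other members, with the letters a, b, d and e, so its name does not single out miR-27d. Likewise the target of ola-miR-24b-3p is held whole in those of 3 other miR-24 probes. The members are thus not independent readings.

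All 24 probes for the 3p arm were detected in both gonads. A probe counted as detected where at least 3 of its 5 spots were brighter than the 95th percentile of that array's empty spots (103 on the female array and 113 on that of the male). On the whole chip 416 of 663 probes (62.7%) were detected on both arrays. For the 24 members of the 3p arm every one of the 10 spots was above the limit, as it was for 388 probes (58.5%) of the chip. Of the 6 probes for the 5p arm, 3 were detected, on both arrays, and the 3 probes for miR-27c-5p on neither. Before any correction, the means of 5 spots spanned 148 to 5710.5 over the 3p probes for the female gonad. They spanned 329.8 to 8123 for the male gonad, while empty spots had medians of 86.7 and 80.5. How bright a probe is also depends on its own sequence and length, so brightness of different probes is given as a reading and not as an order of RNA levels.

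Between the gonads, no member of the cluster passed the limit set for a difference. Differences ran from -0.91 (dre-miR-27a, where it rests on 1 spot, as given below) to 0.79 (ipu-miR-27c) on the log2 scale, male minus female. The limit was a difference of at least 1 on that scale, a 2-fold change, with detection in the brighter gonad and no overlap between the spots of the arrays. On the whole chip, 23 of 490 probes detected in at least one gonad (4.69%) passed it as higher in the male and 8 (1.63%) as higher in the female, 6.33% in all. At a limit of 1.5-fold, 2 of the 27 detected members were higher in the male gonad, against 10.2% of detected probes on the chip, and none in the female, against 7.76%. The median of the 27 differences was -0.10, beside -0.06 over the 490 probes, and 10 of 27 lay above 0, beside 43.1% of the chip. Spots of the arrays did not overlap for 4 members that were higher in the male (chip 19.4%) and 7 that were higher in the female (chip 23.7%), whatever the size. Without outlying spots, described below, these counts were 5 (chip 22%) and 9 (chip 27.8%), and 10 members lay above 0 (chip 42.7%). Read against the chip, these shares of the cluster are not a result about it.

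These differences are relative to how the arrays were set level. As scanned and background corrected, 364 of the 416 probes detected on both arrays were brighter for the male fish, and the median log2 difference was 0.45. In the same way, 26 of the 27 detected members were brighter there, by a median of 0.37. Quantile normalization, which gives both arrays the same distribution of values, removes that shift. A difference common to most miRNAs in 1 sex could therefore not be seen, and each value below says how a probe differed beside the others of the chip.

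Among the 3 miRNAs, the differences of the miR-23 probes had the narrowest range, -0.23 to 0.01. That range covers 5 probes, all of the 3p arm, against 7 detected for miR-24 and 15 for miR-27. It therefore does not rank the miRNAs. dre-miR-23a had a normalized log2 intensity of 12.21 ± 0.11 in the female gonad against 11.995 ± 0.11 in the male, a difference of -0.22. ccr-miR-23a, whose target is shorter by a single base, read 12.36 ± 0.14 and 12.13 ± 0.11, a difference of -0.23. The differences of the 3 miR-23b probes were smaller in size. ccr-miR-23b read 12.18 ± 0.14 and 12.08 ± 0.09, a difference of -0.10. dre-miR-23b read 11.78 ± 0.10 and 11.79 ± 0.09, a difference of 0.01, and ola-miR-23b differed by -0.06. The spots of the gonads overlapped for all 5 probes, so the spots did not separate the gonads for any of them. The miR-23 median was -0.10, while that of miR-27 was smaller in size at -0.07. Both miR-23a probes lay below the 3 miR-23b probes in this difference. The spot SDs of both arrays combined were 0.14 to 0.17 for these 5 probes, so this order is not read as a difference between the letters.

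For the 3p arm of miR-24, the 18-base targets and the longer ones lay on opposite sides of 0. After normalization, the female gonad gave slightly more signal for the 3 longer 3p targets. dre-miR-24 read 12.73 ± 0.11 (female) and 12.37 ± 0.12 (male), a difference of -0.36. ipu-miR-24 read 12.69 ± 0.05 and 12.39 ± 0.05, a difference of -0.30. ipu-miR-24b read 12.40 ± 0.03 and 12.12 ± 0.06, a difference of -0.28. Normalized spots of the gonads did not overlap for any of these 3 probes, and the female gonad had 1.21-fold to 1.29-fold more normalized signal. The 18-base ola-miR-24b-3p, by contrast, read 12.47 ± 0.03 and 12.72 ± 0.10, a difference of 0.25 toward the male gonad, again with no overlap. Its spots before correction were 4634 to 4919 in the female gonad and 7379 to 8661 in that of the male. Its target is the start of the other 3, and ipu-miR-24b, of the same letter, had the opposite sign. Of the detected probes of the chip, 20.6%, 24.3% and 26.1% had a difference at least as low as dre-miR-24, ipu-miR-24 and ipu-miR-24b. For ola-miR-24b-3p, 23.9% had one at least as high. The 18-base ola-miR-27d-3p of miR-27 differed by -0.21, toward the female gonad. Before correction the 3 longer targets too were brighter on the male array. Their means were 5710 (female) and 6579 (male) for dre-miR-24, 5562 and 6667 for ipu-miR-24, and 4397 and 5486 for ipu-miR-24b.

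ola-miR-24c, the 18-base target with G17A against ola-miR-24b-3p, was the miR-24 probe furthest to the male side. The female gonad gave 9.95 ± 0.07 and the male 10.47 ± 0.12, 1.43-fold more in the male. Before correction its spots lay between 755 and 845 in the female gonad and between 1580 and 1943 in that of the male. The groups of spots were thus apart, but 12.9% of the detected probes of the chip had a difference at least as high. The median of the 7 miR-24 probes, -0.28, is that of ipu-miR-24b.

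The 2 shorter probes for miR-27c gave the highest differences of the cluster, and both read more in the male gonad. ipu-miR-27c (20 bases) read 7.38 ± 0.09 (female) and 8.16 ± 0.12 (male), 1.72-fold more in the male. dre-miR-27c-3p (21 bases) read 7.33 ± 0.07 and 7.99 ± 0.10, 1.57-fold more in the male. Both are dim. The gap also shows on the array before correction, where it includes the general shift toward the male array (median log2 difference 0.45, background corrected). The 5 spots of ipu-miR-27c were 144.6, 159, 158, 145.04 and 164 on the female array and 392, 352, 343, 407 and 351 on the male array. Those of dre-miR-27c-3p were 152, 151, 136, 148 and 152 on the female array and 301, 349, 352, 317 and 329.8 on that of the male. No spot overlapped between the gonads in either probe. Less the empty-spot median, the means were 67.5 and 288 for ipu-miR-27c and 61.3 and 249 for dre-miR-27c-3p. Of the detected probes of the chip, 7.76% and 9.39% had a difference at least as high as these 2 probes. The authors' deposited table, made from the same 2 arrays by a method not stated, lists ipu-miR-27c at 83.6 in the female gonad and 181 in that of the male (2.16-fold). It lists dre-miR-27c-3p at 72.9 and 159 (2.18-fold). With 50 added to each value before the log, as for the size limit here, these differences were 0.79 and 0.77 on the log2 scale.

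The longest 3p target of miR-27c did not share this reading. ccr-miR-27c-3p holds the other 2 targets whole, with a C added at the 3′ end of dre-miR-27c-3p. Its spots were 866, 781, 653, 855 and 796 on the female array, and 290.6, 1261, 1274, 1228 and 1076 on the male array. The first male spot stands far below the other 4. With all spots it read 9.92 ± 0.17 and 9.52 ± 0.95, a difference of -0.40, and without the low spot 9.91 ± 0.17 and 9.90 ± 0.11, a difference of -0.01. The authors' deposited table has 902 and 863. Before correction it was brighter than dre-miR-27c-3p on both arrays, 790.3 against 148 in the female gonad, for targets that differ by that single end base. Whether miR-27c differs between the gonads therefore depends on which of its probes is read, by 0.67 on the log2 scale between these nearest relatives even without the low spot.

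Outlying spots also set the values of 4 other miR-27 probes. A spot was called outlying where it lay over 0.5 on the log2 scale from the median of its probe on that array. This held for 3 of the 135 spots of detected members on each array (2.22%, beside 1.96% for all detected probes), all of them dimmer than the median and all in miR-27 probes. dre-miR-27a had a male spot of 215 where the other 4 read 2826 to 3222. With it the probe read 11.32 ± 0.04 (female) and 10.41 ± 1.75 (male), a difference of -0.91, and without it the difference was -0.03. ipu-miR-27b had a female spot of 196 beside 1029 to 1136. It read 9.86 ± 1.14 and 10.30 ± 0.03, and its difference was 0.45 with it and -0.09 without. dre-miR-27e had a female spot of 377 beside 1697 to 1885, with differences of -0.01 and -0.39. dre-miR-27d had a low spot on both arrays, 557 in the female and 338 in the male, and its difference went from -0.23 to 0.13. The 4 low spots of dre-miR-27a, dre-miR-27d and dre-miR-27e all lay in column 4 of the chip, in rows 108 to 113. The layout puts repeat spot 5 of each zebrafish member in column 4, and these low spots were on different arrays. Other spots there were not low: dre-miR-27b in row 109 read 1734 (female) and 2288 (male). In row 108 dre-miR-27a read 2183 on the female array, and in row 113 dre-miR-27e read 1868 on the male array. The cause of the low spots was not tested. The authors' deposited table has dre-miR-27a at 2463 in the female gonad and 2393 in that of the male, a ratio of 0.972.

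Without the outlying spots, the 3p probes of miR-27a and miR-27b other than ccr-miR-27a lay within 0.09 of 0, and miR-27e read slightly less in the male. dre-miR-27a, ola-miR-27a and ccr-miR-27a differed by -0.03, 0.04 and 0.23, and dre-miR-27b and ipu-miR-27b by -0.08 and -0.09. With all spots, ola-miR-27a read 10.96 ± 0.02 and 11.00 ± 0.06, ccr-miR-27a 9.74 ± 0.16 and 9.95 ± 0.08, and dre-miR-27b 11.04 ± 0.04 and 10.97 ± 0.07. Without outlying spots, those of the gonads overlapped for all of these but ipu-miR-27b. For miR-27e, ipu-miR-27e differed by -0.36 and dre-miR-27e by -0.39, with no overlap in either. ipu-miR-27e had no outlying spot and with all spots read 11.58 ± 0.07 (female) and 11.19 ± 0.08 (male), 1.31-fold more in the female. The miR-27d probes differed by -0.26 (ccr-miR-27d), -0.17 (ipu-miR-27d), -0.15 (ola-miR-27d-3p) and 0.13 (dre-miR-27d). Spots did not overlap for ipu-miR-27d and ola-miR-27d-3p, higher in the female with or without outlying spots, nor for dre-miR-27d, higher in the male only once its outlying spots were left out. With all spots, ola-miR-27d-3p read 11.54 ± 0.04 and 11.33 ± 0.09, and ccr-miR-27d 11.56 ± 0.15 and 11.25 ± 0.10. Without outlying spots, the miR-27 differences ran from -0.39 (dre-miR-27e) to 0.75 (ipu-miR-27c). Their median over the 15 detected miR-27 probes was -0.03 (-0.07 with all spots). Probes of the same letter also lay apart, from -0.01 to 0.75 for miR-27c and from -0.26 to 0.13 for miR-27d. This spread is therefore not read as an order of the letters.

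The 5p strands gave little signal. ola-miR-24b-5p was the brightest, with 289 in the female gonad and 361 in that of the male before correction. It read 8.54 ± 0.07 and 8.13 ± 0.14 after normalization, a difference of -0.41 with no overlap. That is the side of the longer 3p probes of miR-24, and opposite to ola-miR-24b-3p (0.25) and ola-miR-24c (0.52). Under cyclic loess the difference of ola-miR-24b-5p was -0.10. The other miR-24 5p probe, fru-miR-24-5p, was just above the detection limit (113 and 128 before correction). It read 6.67 ± 0.18 and 6.72 ± 0.08, a difference of 0.05. ola-miR-27b-5p was as dim, with 107 and 136, and read 6.51 ± 0.13 and 6.80 ± 0.18, a difference of 0.29 with overlapping spots. The probes for miR-27c-5p, from carp, zebrafish and medaka, read 92.1 to 98.8 in the female gonad and 93.8 to 108 in that of the male and were detected in neither. At this brightness a difference between the gonads was not detectable.

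Probes of near-identical target were compared in 31 pairs of members in which 1 target holds the other whole, drawn from 23 probes. In 20 pairs the names have the same letter and in 11 they do not, most of these with ola-miR-27d-3p. The differences of a pair had a median gap of 0.16 (log2) and a highest gap of 1.18. In 10 pairs the gap was over 0.5. Without outlying spots the median gap was 0.12, the highest 0.77, and 5 pairs stayed over 0.5. Of those 5, 2 set ccr-miR-27c-3p against the shorter miR-27c probes and 3 set ola-miR-24b-3p against its longer relatives. Without outlying spots, the miR-24 series of nested targets had differences of 0.31 at 18 bases, -0.23 at 20, -0.31 at 22 and -0.22 at 23.

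Several members kept their side of the chip's median under all processing tried. How many of all detected probes do so was not counted, so this is not read as a trait of these members. Relative to the median of all detected probes, ipu-miR-27c, dre-miR-27c-3p, ola-miR-24c and ola-miR-24b-3p lay on the male side under each of 16 settings, by 0.67 to 1.27, 0.66 to 1.11, 0.50 to 0.78 and 0.29 to 0.42. dre-miR-24, ipu-miR-24, ipu-miR-24b and ipu-miR-27e lay on the female side under each, by -0.32 to -0.16 for dre-miR-24 and -0.35 to -0.18 for ipu-miR-27e. The other miR-27e probe, dre-miR-27e, ran from -0.38 to 0.26. It lay on the male side under 12 settings, all of which average in its low female spot. The male side was also kept by ccr-miR-27a, ola-miR-27a and dre-miR-23b (0.06 to 0.24). The female side was also kept by ccr-miR-27d, ipu-miR-27d, ola-miR-27d-3p and ola-miR-24b-5p. dre-miR-23a lay between -0.19 and 0.00. The 16 settings are not independent. No normalization, 75th percentile scaling and scaling to the 3P control probes give the same values relative to this median. Other settings only leave out 1 repeat spot. The signs of the differences themselves depend on the levelling: with no normalization, where the median of all detected probes is 0.37, dre-miR-24 too was brighter on the male array. Under plain background subtraction both shorter miR-27c probes passed the size limit, with 1.19 for ipu-miR-27c and 1.03 for dre-miR-27c-3p, and under cyclic loess ipu-miR-27c did, with 1.02. Of the 490 detected probes of the chip, 41 passed as higher in the male under plain subtraction and 30 under cyclic loess. Plain subtraction also put dre-miR-27a, its low male spot kept, past the limit as higher in the female (-1.08), as it did 29 probes of the chip.

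Control probes and markers of other cells give the setting of these values. Control probes with 3M in their names, of which 16 of 22 were above the detection limit on both arrays, had a median male over female ratio of 1.84 as scanned (0.986 to 3.60), while the 10 such probes of 11 with 3P had 0.861 (0.659 to 1.07). What the names of these controls stand for was not used here, and their part in the male-side values of the shorter miR-27c, miR-24b and miR-24c probes was not tested. Of the gonad marker miR-202, ipu-miR-202 read 6.68 (female) and 8.58 (male) and passed the limit as higher in the male. Its female signal was just above the detection limit (113 and 544 before correction in the female and male gonad). Both zebrafish miR-202 probes were detected in neither, so this check of the tissue rests on 1 probe. Vessel markers (miR-126, miR-221 and miR-222; 14 of 15 probes detected) had a median difference of -0.08, from -0.55 to 0.93, and none passed the limit. Leukocyte markers (miR-142, miR-146, miR-150, miR-155 and miR-223; 15 of 18) had -0.17, from -0.69 to 1.30, and dre-miR-223 passed as higher in the male. The brighter ola-miR-223 had -0.19, and ipu-miR-223 was detected in neither gonad. Erythroid markers (miR-144 and miR-451; 6 of 6) had -0.36, from -0.75 to 0.17. Smooth muscle and mesenchyme markers (miR-143, miR-145, miR-199 and miR-214; 14 of 15) had 0.00, from -0.32 to 0.61, and striated muscle markers (miR-1, miR-133, miR-206 and miR-499; 20 of 22) had -0.24, from -0.76 to 0.49. Summed over the empty-spot median and before normalization, the vessel probes gave 24573 in the female gonad and 32612 in that of the male, the leukocyte probes 47770.2 and 57014, and the smooth muscle and mesenchyme probes 134052 and 145429. The erythroid probes gave 10393 and 10411, and the striated muscle probes 63771 and 58918, the female gonad being the higher there. Most of the striated muscle sum came from 1 probe, pol-miR-133-5p (55411 and 47043 before correction), and the direction of the sum rests on it. The median differences of the vessel, leukocyte, erythroid and muscle lists lay at or below 0. So did those of the cluster (-0.10) and of all detected probes (-0.06), so this is not particular to the lists or the cluster. The part of these cell types in the values of the cluster was not tested.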

How the data were processed

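The 2 scanner files, 1 per gonad, hold a median Cy3 spot intensity, per the file headers, for 3968 spots, 3315 of them of miRNA probes and 361 empty. These deposited intensity values are used as given; scanner software is named by no label or header used here. Per the labels' protocols, small RNAs were tailed and tagged for staining. The authors' deposited table gives 1 linear, levelled intensity per probe, its method not stated, and served as an alternative (log2 with 50 added).

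In R 4.3.3 with limma 3.58.1, all spots were corrected by normexp (offset 50), log2 values averaged over 5 spots, and the 663 probes quantile normalized. Differences, detection and lists were computed in Python 3.11.15 (numpy 2.4.6, pandas 2.3.3). The median spot SD of detected members was 0.09 (female) and 0.10 (male); the number of arrays limits the precision. No genome was used, so no positions are given. Alternatives covered normalization, background, spot summary, detection and member choice.

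Every member could be named; means with spot SDs were given for the brightest detected probe of each letter and arm, any past the size limit, the highest and lowest difference of each miRNA, and probes over 0.5 from a near-identical one. Members and lists were chosen with earlier results of these data known. Leaving out outlying spots and 3P scaling were added after seeing the data.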

Additional observations from a re-analysis of the deposited data

How the results depend on the processing

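The count of 0 members past the size limit became 1 under cyclic loess (ipu-miR-27c), 1 with offset 16 (dre-miR-27a), 1 without repeat spot 1, 1 without repeat spot 3 and 1 without repeat spot 4 (dre-miR-27a each time, with its low male spot kept), 3 under plain subtraction, 2 at a limit of 1.5-fold, 4 with no normalization and 6 with scaling to the 3P controls. Leaving out the overlap condition could not change the count, since no member differed by 1 or more in size in the main processing. The count stayed 0 under 75th percentile scaling, no background correction, the median of spots, without repeat spots 2 and 5, without outlying spots and in the authors' table with 50 added before the log. As deposited, that table has ipu-miR-27c, dre-miR-27c-3p and ola-miR-27b-5p at 2.16, 2.18 and 2.75 times the female value, past 2-fold. The chip's own counts moved as well. Of its 490 detected probes, 74 passed on the male side and 0 on the female side with no normalization. With 3P scaling these counts were 123 and 0, under plain subtraction 41 and 29, and under cyclic loess 30 and 4. They were 27 and 15 with offset 16 and 50 and 38 at 1.5-fold, beside 23 and 8 in the main processing. The member counts are to be read against these and are not a result about the cluster. The median of the 27 members was 0.37 with no normalization and 0.69 with 3P scaling, where all detected probes had 0.37 and 0.68. By miRNA the medians of miR-23, miR-24 and miR-27 were then 0.47, 0.32 and 0.46, and 0.78, 0.63 and 0.78. Cyclic loess gave 0.057 for miR-23 and -0.081 for miR-24. With no normalization and with 3P scaling, the median of the members lay 0.003 above that of all detected probes, as under 75th percentile scaling. Each of these settings shifts an array as a whole or not at all. The cause of the other moves was not tested. The 27 members detected per array became 25 (female) and 27 (male) with all 5 spots asked for, and 23 and 25 at the 99th percentile, where the median difference was -0.19. For the 22 detected members with no outlying spot, 263 of 330 single-probe values moved by less than the spot SDs of both arrays combined. No normalization and 3P scaling gave 20 and 22 of the 67 other values, and leaving out a repeat spot at most 1 each. This share therefore depends on which settings are included. The 5 detected members with outlying spots are not counted, since those spots widen that SD. No paired analysis was possible because each sex has 1 array. The 5p probes near the empty spots are limited by signal over background.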
